A study of Mus musculus with 9 samples.

Results

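Efferocytosis is the uptake of apoptotic cells by phagocytes. A dying cell exposes phosphatidylserine (PS), a lipid otherwise kept on the inner face of the membrane, and phagocytes recognize it either directly, through receptors such as TIM-4 and stabilin-1, or through soluble bridging molecules. GAS6 bridges PS to the TAM receptor tyrosine kinases MERTK and AXL, and protein S bridges it to MERTK. MFG-E8 bridges PS to αv integrins, while scavenger receptors such as CD36 take part in binding and uptake. Tissue macrophages are best known for these receptors, and dendritic cells that take up dead cells can present the antigens they contain.

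To describe this machinery in splenic type 2 dendritic cells, 9 genes were chosen by symbol from the 24054 genes listed in each deposited file. They comprise Timd4, the TAM receptors Mertk and Axl, the bridging molecules Gas6, Pros1 and Mfge8, and the scavenger receptors Stab1, Cd36 and Cd163. All 9 passed the filter on low counts, an average of at least 1 read per library, that left 14452 genes for testing.

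RNA was sequenced from 3 groups of 3 libraries. All mice were C57BL/6, homozygous for Cre at Clec9a and for the Rosa tdTomato allele (Clec9a cre/cre Rosa TOM), so that TOMATO stays on in a cell once Clec9a-driven Cre was active in it or its precursors, and all 3 groups share both alleles. The groups were TOM+ cDC2 from mice at postnatal day 8, TOM- DC2 from mice at postnatal day 8, and TOM+ cDC2 from adult mice, which were 9 weeks old for replicate 1 and 8 weeks old for replicates 2 and 3. Live, autofluorescence-negative cells with MHCII, CD11c and CD11b were sorted from spleen after enrichment on CD11c, and spleens of young mice were pooled. The Cre is inserted into Clec9a, so homozygous carriers have no intact copy of this gene, which itself encodes a receptor for dead cells. The study states that cDC2 do not express this receptor. No group with intact Clec9a was analysed here. Both sexes were used in the study, and the sex behind each library is not given in the sources used here. Replicates are biological ones by the description of the study, and how many animals went into each library is not given in the sources used here.

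Levels are given as TPM, the share of all transcripts after correction for transcript length, as the authors computed it, so levels of different genes can be set side by side. Changes are log2 fold changes (log2FC) from edgeR on read counts, with the standard error (SE) and the adjusted p (padj), and a gene counts as called when its log2FC is above 1 or below -1 and its padj is under 0.05. Each library had between 12783252 and 22809401 reads on genes. The sorted populations carried surface genes of the gate in all 9 libraries. Itgax was at 300.72 to 463.08 TPM, Itgam at 73.03 to 168.49 and the MHCII gene H2-Ab1 at 15674.32 to 29642.24. Sirpa, a cDC2 marker outside this gate, was at 462.71 to 862.4. Libraries of young mice carry the numbers 81, 91 and 92 (replicates 1, 2 and 3) in both groups. Both libraries numbered 81 stood apart by collagen transcripts, with Col3a1 at 4.49 TPM in TOM+ cDC2 and 1.13 in TOM- DC2 against 0 to 0.16 in the other 7 libraries, and counts below are also given without them.

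The promoters of 4 members are shown because these genes lie on opposite sides of the comparison between the young groups: Stab1 and Mertk had their higher levels in TOM- DC2, Timd4 and Cd163 in TOM+ cDC2. Each sequence is the RefSeq window of build GRCm38.p6 from 250 bases before to 50 bases after the annotated start, 5′ to 3′ on the strand of the gene. Capitals mark, on either strand, the GC box GGGCGG bound by Sp factors, the ETS core GAGGAA found in PU.1 sites, and TGCTGA, the core of a MAF half-site.
Stab1, chr14:31168592-31168891, minus strand: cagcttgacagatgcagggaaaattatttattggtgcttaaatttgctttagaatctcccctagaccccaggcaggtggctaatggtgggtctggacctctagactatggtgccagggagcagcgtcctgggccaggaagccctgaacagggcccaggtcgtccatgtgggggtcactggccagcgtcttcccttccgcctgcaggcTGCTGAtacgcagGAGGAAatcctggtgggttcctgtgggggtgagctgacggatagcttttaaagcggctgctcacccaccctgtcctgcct
Mertk, chr2:128698665-128698964, plus strand: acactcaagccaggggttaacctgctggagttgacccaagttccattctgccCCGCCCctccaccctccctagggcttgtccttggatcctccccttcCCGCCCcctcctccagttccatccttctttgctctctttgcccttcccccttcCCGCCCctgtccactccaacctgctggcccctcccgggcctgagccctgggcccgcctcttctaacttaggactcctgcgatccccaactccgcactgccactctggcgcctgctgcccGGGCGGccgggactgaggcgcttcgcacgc
Timd4, chr11:46810549-46810848, plus strand: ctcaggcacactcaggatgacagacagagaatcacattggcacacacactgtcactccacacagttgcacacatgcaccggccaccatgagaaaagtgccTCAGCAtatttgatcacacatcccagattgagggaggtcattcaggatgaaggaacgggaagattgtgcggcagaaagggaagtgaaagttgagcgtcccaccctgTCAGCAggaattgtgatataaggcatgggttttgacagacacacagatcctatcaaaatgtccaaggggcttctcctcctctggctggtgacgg
Cd163, chr6:124304401-124304700, plus strand: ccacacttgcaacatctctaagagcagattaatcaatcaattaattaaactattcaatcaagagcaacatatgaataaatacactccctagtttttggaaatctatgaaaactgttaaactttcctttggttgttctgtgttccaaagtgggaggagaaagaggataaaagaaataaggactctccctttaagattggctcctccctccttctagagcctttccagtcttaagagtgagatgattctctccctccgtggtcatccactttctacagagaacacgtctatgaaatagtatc

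All 9 members had a promoter window in the table of 32851 windows. The GC box occurred in 6 of them, those of Mertk, Axl, Gas6, Pros1, Mfge8 and Cd36, against 35.7% of all windows. Mertk held 4 matches and Pros1 5, of which the last 2 overlap by a pair of bases, whereas the windows of Timd4, Stab1 and Cd163 held none. The ETS core was found in Axl, Mfge8 and Stab1 (28.3% of all windows) and the MAF half-site core in Timd4, Stab1 and Cd36 (19.5% of all windows). In Stab1 both lie close together, the MAF core 43 and the ETS core 30 bases before the start, and Timd4 held 2 MAF cores, 150 and 44 bases before it. None of the 3 motifs was found in Cd163. Its window had 38.0% G and C and 2 CpG, below the 52.7% and 7 that are the medians of all windows, while Pros1 had 66.7% and 21 and Mertk 66.0% and 14. These matches are letters in a short window and say nothing of binding.

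Between the young groups, all 9 genes had reads in every young library, and 1 differed in level enough to be called. Stab1 was 5.98-fold higher in TOM- DC2 and was that member, against 1.16% of all genes tested that were called higher in TOM- DC2. Mertk and Axl also had all 3 TOM- DC2 libraries above all TOM+ cDC2 libraries, whereas Timd4, Pros1 and Cd163 had all 3 TOM+ cDC2 libraries above all TOM- DC2 libraries. Such separation of 3 against 3 libraries was found for 9.41% of tested genes with TOM- DC2 higher and 5.0% with TOM+ cDC2 higher. Mfge8, Cd36 and Gas6 overlapped between the groups.

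No member was called higher in TOM+ cDC2, as were 0.0208% of all genes. In that direction 3 members had an unadjusted edgeR p under 0.05, and neither DESeq2 nor limma called any. Shares of all genes at an unadjusted p are not given here, so such counts have no background beside them. By the adjusted p alone Cd163 passed as well (edgeR padj = 0.026, 1.93-fold), against 0.125% of tested genes that passed with TOM+ cDC2 higher and 1.47% that passed with TOM- DC2 higher. The deposited numbers were taken to pair the young libraries, though what they stand for is not given in the sources used here. With the number as a replicate block Timd4 (log2FC 1.06, edgeR padj = 2e-04) and Mertk (log2FC -1.18, edgeR padj = 0.023) were called beside Stab1. That fit called 0.104% of all genes higher in TOM+ cDC2 and 1.79% higher in TOM- DC2. Its block covered all 9 libraries, so adult replicates 1 and 2, numbered 91 and 92, shared blocks with young libraries. Between young and adult libraries the number pairs nothing, as given below, and a paired fit of the young libraries alone was not run. With the block Pros1 (edgeR padj = 6.2e-04), Cd163 (edgeR padj = 0.0015) and Axl (edgeR padj = 5.6e-04) passed the adjusted p without reaching the fold, against 2.23% of genes passing with TOM+ cDC2 higher and 4.34% with TOM- DC2 higher. The median log2FC over the members was -0.01, next to 0.00 over all genes tested. Without both libraries numbered 81, 1 member was called, again Stab1 (log2FC -3.16, edgeR padj = 3.3e-04).

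Between TOM+ cDC2 of young and adult mice, 4 of the 9 members were called, all higher in the young: Timd4, Pros1, Stab1 and Cd163. Of all genes tested, 5.96% were called higher in young TOM+ cDC2. Mfge8 and Cd36 rose as well by the adjusted p, which makes 6 of 9 against 21.0% of all genes, without reaching the fold. Their levels did not overlap between ages in 7 of 9 members, against 34.7% of all genes with the young libraries higher. None was called higher in adults, as were 6.86% of all genes, and none reached an unadjusted edgeR p under 0.05 in that direction or was called by DESeq2 or limma. The median log2FC over the 9 members was 1.04, or 0.98 with Gas6 set to the lower bound given below, next to 0.05 over all genes tested. Without both libraries numbered 81, 5 members were called, with Mfge8 (log2FC 1.02) the one added.

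Between young TOM- DC2 and adult TOM+ cDC2, 4 of the 9 members were called and again all were higher in the young: Mertk, Gas6, Stab1 and Cd163. For all genes tested this share was 6.50%. Axl, Mfge8 and Cd36 passed the adjusted p without reaching the fold, which makes 7 of 9 against 19.4% of all genes. The libraries did not overlap for 7 of 9 members, against 36.4% of all genes with TOM- DC2 higher. None was called higher in adults, as were 4.78% of all genes, and in that direction none had an unadjusted edgeR p under 0.05 or was called by DESeq2 or limma. The median log2FC was 0.80 over the members and 0.07 over all genes. This comparison and the one before it share the adult libraries, and here age and TOMATO differ together and cannot be told apart. Without both libraries numbered 81, 3 members were called and Gas6 was not among them (log2FC 1.96, edgeR padj = 0.13).

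**Figure D1:**
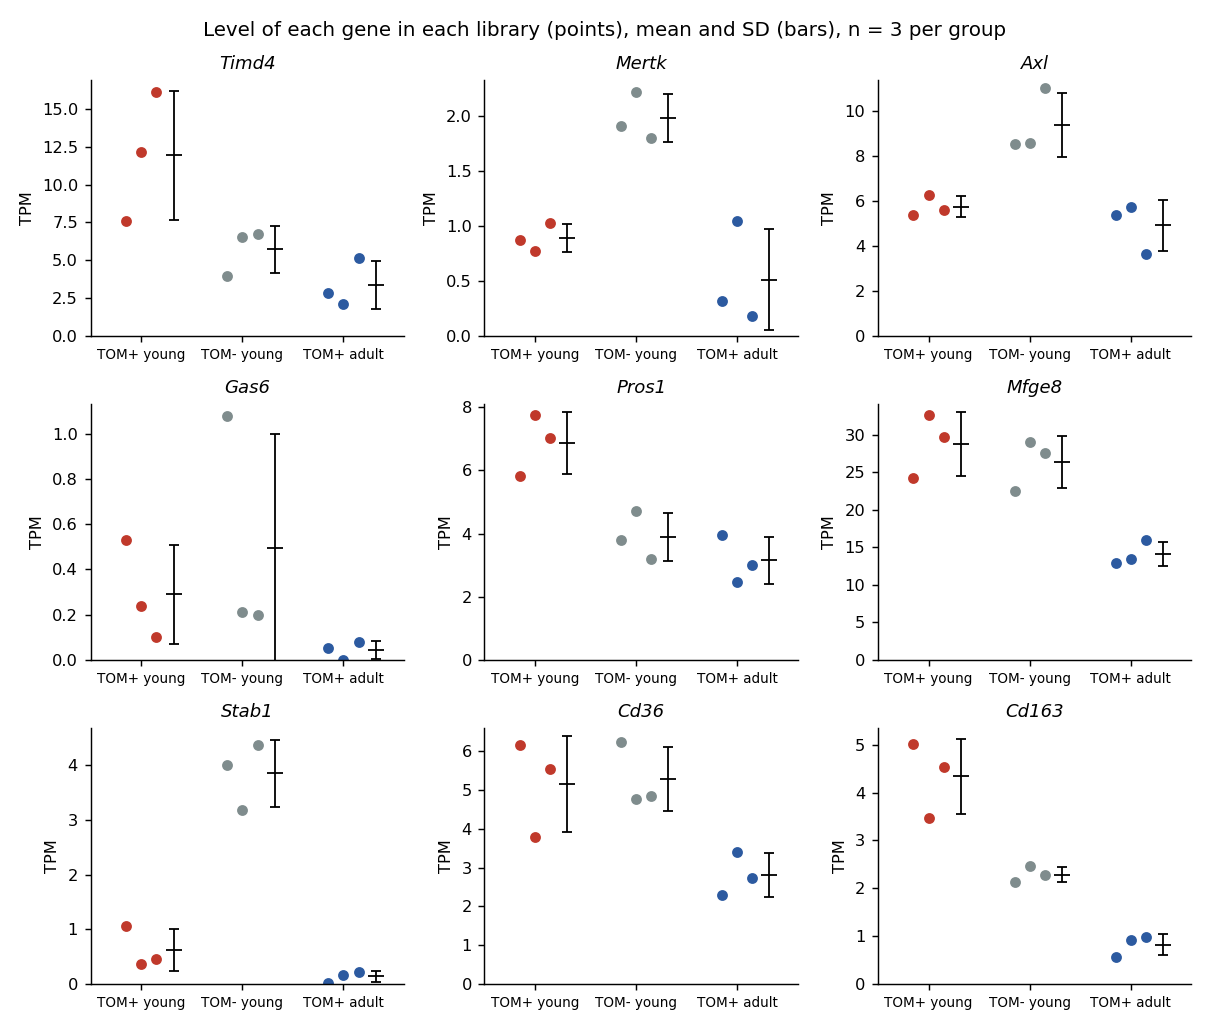
TPM of each of the 9 genes (vertical axes, linear and starting at 0) in each library, with points for the 3 libraries of young TOM+ cDC2 (red), young TOM- DC2 (grey) and adult TOM+ cDC2 (blue) and the mean ± SD to the right of each group (lower ends under 0 are not drawn). Stab1 sits at 3.18 to 4.37 TPM in TOM- DC2 and at most at 1.06 elsewhere, while Timd4, Pros1 and Cd163 are highest in young TOM+ cDC2.

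Timd4 encodes TIM-4, a PS receptor that tethers apoptotic cells without signaling on its own (chr11:46810786-46844333, plus strand). Its level was 7.59, 12.15 and 16.15 TPM in the 3 libraries of young TOM+ cDC2, 3.94, 6.52 and 6.72 in TOM- DC2, and 2.83, 2.09 and 5.14 in adults. Young TOM+ cDC2 lay above all other libraries, and TOM- DC2 and adults overlapped. The level was 3.19-fold higher in young than in adult TOM+ cDC2 (log2FC 1.68, SE 0.36, edgeR padj = 0.0026). Between the young groups it was 2.08-fold higher in TOM+ cDC2 without passing in the fit without pairs (95% interval of the log2FC 0.33 to 1.78, edgeR padj = 0.22), and leaving out TOM+ cDC2 replicate 1 gave a call (log2FC 1.32, edgeR padj just under the threshold). TOM- DC2 and adults, the lower neighbours in this order, did not differ beyond their spread (log2FC 0.62, edgeR padj = 0.21).

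Mertk and Axl encode TAM kinases, MERTK being the main one for steady uptake of dead cells and AXL one that is induced by inflammatory signals. Mertk (chr2:128698915-128803162, plus strand) was at 0.87, 0.77 and 1.02 TPM in young TOM+ cDC2, 1.91, 2.22 and 1.8 in TOM- DC2, and 0.31, 1.04 and 0.18 in adults. All TOM- DC2 libraries lay above the others, and adult replicate 2 alone among the adults reached the level of young TOM+ cDC2. The gene was 3.97-fold higher in TOM- DC2 than in adults (log2FC 1.99, SE 0.47, edgeR padj = 0.0057), or a log2FC of 3.13 without adult replicate 2 (edgeR padj = 0.00013), and 2.26-fold higher than in young TOM+ cDC2 (log2FC -1.18, SE 0.42, edgeR padj = 0.31 without pairs). Young and adult TOM+ cDC2 differed by a log2FC of 0.81 (95% interval -0.26 to 1.88, edgeR padj = 0.21). The last value rests on the same library: without adult replicate 2 it was 1.95 (edgeR padj = 0.0024), and the difference between the young groups then passed too (log2FC -1.18, edgeR padj = 0.044). Counts of Mertk were low, 6 to 92 reads per library.

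Axl (chr7:25756500-25788924, minus strand) was at 5.36, 6.25 and 5.6 TPM in young TOM+ cDC2, 8.54, 8.58 and 11.03 in TOM- DC2, and 5.39, 5.71 and 3.62 in adults. TOM- DC2 thus had the highest level, and the TOM+ groups overlapped. It rose 1.74-fold in TOM- DC2 against adults (log2FC 0.80, SE 0.19, edgeR padj = 0.0050) and was 1.62-fold higher than in young TOM+ cDC2 (log2FC -0.69, SE 0.18, edgeR padj = 0.10 without pairs). Young and adult TOM+ cDC2 differed by a log2FC of 0.11 with a 95% interval of -0.30 to 0.52. Tyro3, the remaining TAM receptor, held at most 0.2 TPM in any library.

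Gas6 and Pros1 encode ligands of these kinases, GAS6 of both and protein S of MERTK. Gas6 (chr8:13465374-13494535, minus strand) was close to the limit of detection, with 18, 6 and 3 reads in young TOM+ cDC2 (0.53, 0.24 and 0.1 TPM), 23, 5 and 8 in TOM- DC2 (1.08, 0.21 and 0.2 TPM), and 1, 0 and 2 in adults (0.05, 0 and 0.08 TPM). The highest value of each young group was that of replicate 1, the libraries numbered 81. With adults taken at a floor of 3 reads per library, which covers counting error only, Gas6 was at least 2.99-fold higher in TOM- DC2 and at least 1.97-fold higher in young TOM+ cDC2. These bounds rest on the libraries numbered 81: without TOM- DC2 replicate 1 the first was 1.36-fold, and without TOM+ cDC2 replicate 1 the other was 1.07-fold. The former difference was called (edgeR padj = 0.040) and the latter was not (edgeR padj = 0.087). The call was lost without TOM- DC2 replicate 1 (edgeR padj = 0.17), and also without adult replicate 1, 2 or 3 (edgeR padj = 0.091, 0.11 and 0.070). A stretch of 34 exon bases, 1.33% of Gas6, is shared with Tmem255b on the opposite strand, which was listed at 0 in all 9 libraries.

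Pros1 (chr16:62854307-62929346, plus strand), which encodes protein S, was at 5.82, 7.75 and 7.02 TPM in young TOM+ cDC2, 3.78, 4.7 and 3.18 in TOM- DC2, and 3.96, 2.47 and 3.01 in adults. Young TOM+ cDC2 stood above both other groups, which overlapped. Its level was 2.06-fold higher in young than in adult TOM+ cDC2 (log2FC 1.04, SE 0.22, edgeR padj = 0.0021) and 1.85-fold higher than in TOM- DC2 (log2FC 0.89, SE 0.21, edgeR padj = 0.062 without pairs). The first value is at the edge of the fold threshold and was below it without young TOM+ cDC2 replicate 2 or 3 (0.94 and 0.99) and without adult replicate 2 or 3 (0.91 and 0.99), with padj under 0.05 each time. The second passed both criteria without TOM+ cDC2 replicate 1 (log2FC 1.01, edgeR padj = 0.035) and without TOM- DC2 replicate 2 (log2FC 1.10, edgeR padj = 0.034). TOM- DC2 and adults differed by a log2FC of 0.16 (95% interval -0.33 to 0.64). Between Gas6 and Pros1, Pros1 was thus the one with reads in every library, at 58 to 275 reads, and Gas6 the one near 0.

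Mfge8 (chr7:79133768-79149060, minus strand) encodes the bridge between PS and αv integrins and was the most abundant member in every library. It was at 24.19, 32.59 and 29.71 TPM in young TOM+ cDC2, 22.54, 29.09 and 27.51 in TOM- DC2, and 12.9, 13.49 and 15.91 in adults. Both young groups lay above all adults and overlapped each other. Mfge8 rose 1.86-fold in young against adult TOM+ cDC2 (log2FC 0.90, SE 0.16, edgeR padj = 7.7e-04) and 1.68-fold in TOM- DC2 against adults (log2FC 0.74, SE 0.16, edgeR padj = 0.0032). Without TOM+ cDC2 replicate 1 the first of these reached the fold (log2FC 1.04, edgeR padj = 1.4e-04). Between the young groups the log2FC was 0.15, with a 95% interval of -0.18 to 0.49.

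Stab1 encodes stabilin-1, a large scavenger receptor for PS and modified lipoproteins that is made by macrophages and by sinusoidal endothelium (chr14:31139017-31168651, minus strand). Its level was 1.06, 0.36 and 0.45 TPM in young TOM+ cDC2, 4.01, 3.18 and 4.37 in TOM- DC2, and 0.02, 0.17 and 0.22 in adults, from 104, 31 and 49 reads, 291, 263 and 523 reads, and 2, 10 and 19 reads. The 3 groups did not overlap, with TOM- DC2 highest and adults lowest. TOM- DC2 exceeded young TOM+ cDC2 5.98-fold (log2FC -2.58, SE 0.35, edgeR padj = 0.0014) and adults 23.9-fold (log2FC 4.58, SE 0.44, edgeR padj = 1.1e-05). Young TOM+ cDC2 exceeded adults 4.0-fold (log2FC 2.0, SE 0.49, edgeR padj = 0.0063). Without adult replicate 3 the log2FC against adults was 5.18 in TOM- DC2 (edgeR padj = 7.2e-05) and 2.6 in TOM+ cDC2 (edgeR padj = 0.0085), and without both libraries numbered 81 the latter was 1.41 (edgeR padj = 0.021). On log2(TPM + 1), which compresses such low levels, the difference between young and adult TOM+ cDC2 was 0.49 (limma padj = 0.048) and short of the fold. Of its exon bases 112, or 1.09%, are shared with Nt5dc2 on the opposite strand, and the libraries keep no strand. Nt5dc2 was at 18.99 to 22.38 TPM in the young libraries and differed between the young groups by a log2FC of -0.08. In adults it was at 4.73 to 12.28 TPM, so it changed with age in the same direction as Stab1. Against adults its log2FC was 1.12 in young TOM+ cDC2 (edgeR padj = 0.0025) and 1.20 in TOM- DC2 (edgeR padj = 0.0018). The part of Nt5dc2 reads in the level of Stab1 was not tested.

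Cd36 encodes a scavenger receptor for oxidized lipids and thrombospondin (chr5:17781690-17888959, minus strand). Its level was 6.15, 3.78 and 5.55 TPM in young TOM+ cDC2, 6.24, 4.77 and 4.85 in TOM- DC2, and 2.28, 3.4 and 2.73 in adults. All young libraries lay above the adults, and the young groups overlapped. It rose 1.66-fold in TOM+ cDC2 (log2FC 0.73, SE 0.20, edgeR padj = 0.010) and by 0.73 on the log2 scale in TOM- DC2 (SE 0.20, edgeR padj = 0.011) against adults. Between the young groups the log2FC was -0.01 with a 95% interval of -0.41 to 0.39, and its sign changed with single libraries left out.

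Cd163 encodes the receptor for complexes of hemoglobin and haptoglobin (chr6:124304636-124330529, plus strand). It is best known as a marker of resident macrophages rather than as a PS receptor. The level was 5.01, 3.48 and 4.54 TPM in young TOM+ cDC2, 2.13, 2.46 and 2.27 in TOM- DC2, and 0.57, 0.91 and 0.98 in adults. The groups did not overlap, with young TOM+ cDC2 highest and adults lowest. Against adults, Cd163 was 4.54-fold higher in TOM+ cDC2 (log2FC 2.18, SE 0.22, edgeR padj = 1.1e-05) and 2.35-fold higher in TOM- DC2 (log2FC 1.24, SE 0.22, edgeR padj = 0.0010). Its difference between the young groups (log2FC 0.95, SE 0.19, edgeR padj = 0.026) passed both criteria without TOM+ cDC2 replicate 2 (log2FC 1.06, edgeR padj = 0.032). Without both libraries numbered 81 it had a log2FC of 0.81 (edgeR padj = 0.20). Stab1 and Cd163 were the members whose 3 groups were fully separated, and their orders differ: Stab1 was highest in TOM- DC2, Cd163 in TOM+ cDC2.

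**Figure D2:**
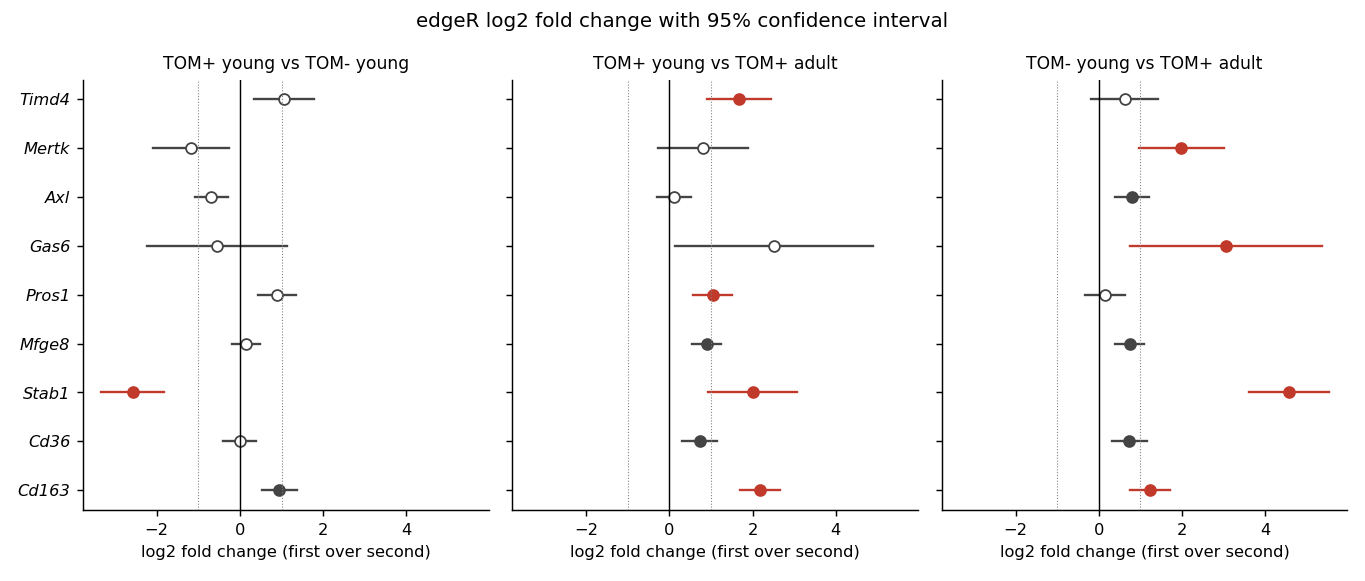
edgeR log2FC (horizontal axes, first group over second) with 95% confidence intervals for the 9 genes in the 3 comparisons, where filled points passed the adjusted p, red points were also beyond the fold threshold (dotted lines at -1 and 1) and open points did not pass. All 9 fitted values lie above 0 in both comparisons with adults (those of Gas6, which had 0 to 2 adult reads, have the widest intervals and are no measure of its fold), and in the comparison of the young groups Stab1 lies at -2.58 and Cd163 at 0.95.

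With the young libraries paired by these numbers, the differences were also read pair by pair. Stab1 was 3.78-fold, 8.83-fold and 9.71-fold higher in TOM- DC2 within the pairs numbered 81, 91 and 92. Mertk was 2.2-fold, 2.88-fold and 1.76-fold higher and Axl 1.59-fold, 1.37-fold and 1.97-fold higher in TOM- DC2. For these genes all 3 pairs pointed the same way, which was fixed in advance because their young groups did not overlap. In the other direction Timd4 was 1.93-fold, 1.86-fold and 2.4-fold higher in TOM+ cDC2. Pros1 was 1.54-fold, 1.65-fold and 2.21-fold higher and Cd163 2.35-fold, 1.41-fold and 2-fold higher in TOM+ cDC2. The young groups did not overlap for Timd4, Pros1 and Cd163 either, so the shared direction of their 3 pairs was fixed as well. Mfge8 had ratios of TOM+ to TOM- between 1.07 and 1.12, and the ratios of Cd36 and Gas6 fell on both sides of 1.

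**Figure D3:**
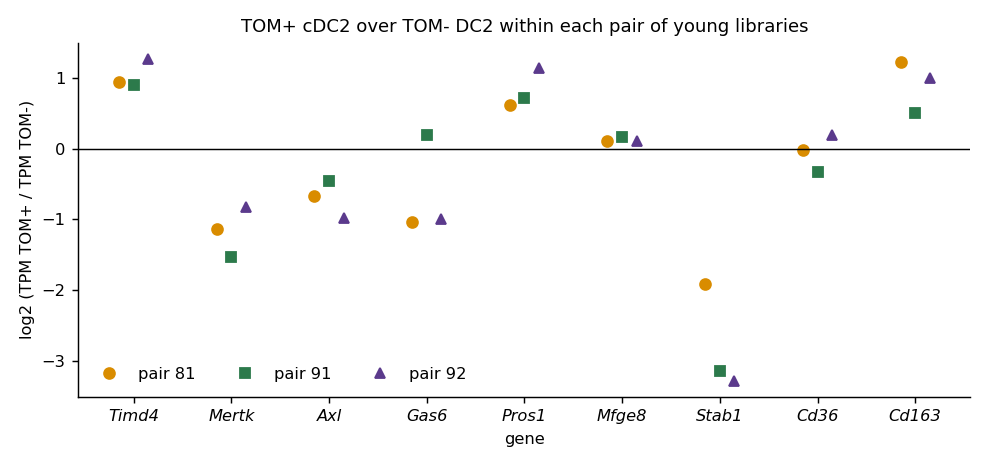
Log2 ratio of TPM in TOM+ cDC2 over TPM in TOM- DC2 (vertical axis) for each of the 9 genes, with 1 point for each pair of young libraries that carry the same deposited number (81 circles, 91 squares, 92 triangles). Points of Timd4, Pros1 and Cd163 all lie above 0 and those of Mertk, Axl and Stab1 all below it, with Stab1 between -1.92 and -3.28. For these genes the side of 0 was fixed in advance, as their young groups did not overlap.

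Several members are also genes of splenic macrophages, so the markers of such cells were read beside them. The summed level of the 15 macrophage markers was 629.8 to 693.4 TPM in TOM- DC2, 495.8 to 536.4 in young TOM+ cDC2 and 351.6 to 418.7 in adults, the same order of groups as Stab1 and Mertk. Between the young groups 14 of the 15 had their higher fitted level in TOM- DC2. Of all 14452 genes tested, 7263 had theirs in TOM+ cDC2. With TOM- DC2 higher, 7 of the 15 had an unadjusted edgeR p under 0.05. Between the young groups edgeR called none, while DESeq2 called none and passed 3 by its adjusted p. The shares of all genes at that unadjusted p or passing in DESeq2 are not given here. With the replicate block edgeR passed 8 by the adjusted p with TOM- DC2 higher, against 4.34% of all genes. That fit passed 0 with TOM+ cDC2 higher and called none. Spic, the transcription factor of red pulp macrophages, was at 62.07, 81.58 and 52.34 TPM in TOM- DC2, 44.23, 47.79 and 41.88 in young TOM+ cDC2 and 25.28, 23.28 and 31.84 in adults. Slc40a1, the iron exporter ferroportin, was at 10.72, 10.25 and 10.2 TPM in TOM- DC2, 6.68, 5.1 and 6.12 in young TOM+ cDC2 and 2.18, 2.64 and 0.94 in adults. Both were lowest in adults, and Spic (log2FC 1.11, edgeR padj = 2.5e-04) and Slc40a1 (log2FC 2.31, edgeR padj = 3.3e-05) rose in TOM- DC2 against adults.

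Some other macrophage markers were near 0 or did not separate the 3 groups in this order. Cd5l, a defining gene of red pulp macrophages, was listed at 0 to 0.54 TPM and Siglec1, which marks marginal metallophilic macrophages, at 0.02 to 0.19. Vcam1 was at 12.32 to 14.71 TPM in adults, 8.27 to 9.83 in young TOM+ cDC2 and 11.57 to 14.43 in TOM- DC2. The F4/80 gene (Adgre1, listed under its older symbol Emr1) was at 191.09 to 237.22 TPM in TOM- DC2. It was at 166.2 to 221.21 in young TOM+ cDC2, which overlapped both other groups, and 163.56 to 179.37 in adults. The complement gene C1qa, whose product also bridges dying cells to phagocytes, was at 37.93, 46.29 and 38.08 TPM in TOM- DC2, 25.3, 32.86 and 25.55 in young TOM+ cDC2 and 27.14, 25.18 and 11.99 in adults. Its means, like those of Emr1, had the order of the summed markers, but young TOM+ cDC2 and adults overlapped. Timd4, Pros1 and Cd163 had their highest level in young TOM+ cDC2, the group between the others in the summed markers. The part of macrophage RNA in these results was not tested, and in sorted bulk samples fewer cells of a type and less RNA per cell cannot be told apart.

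**Figure D4:**
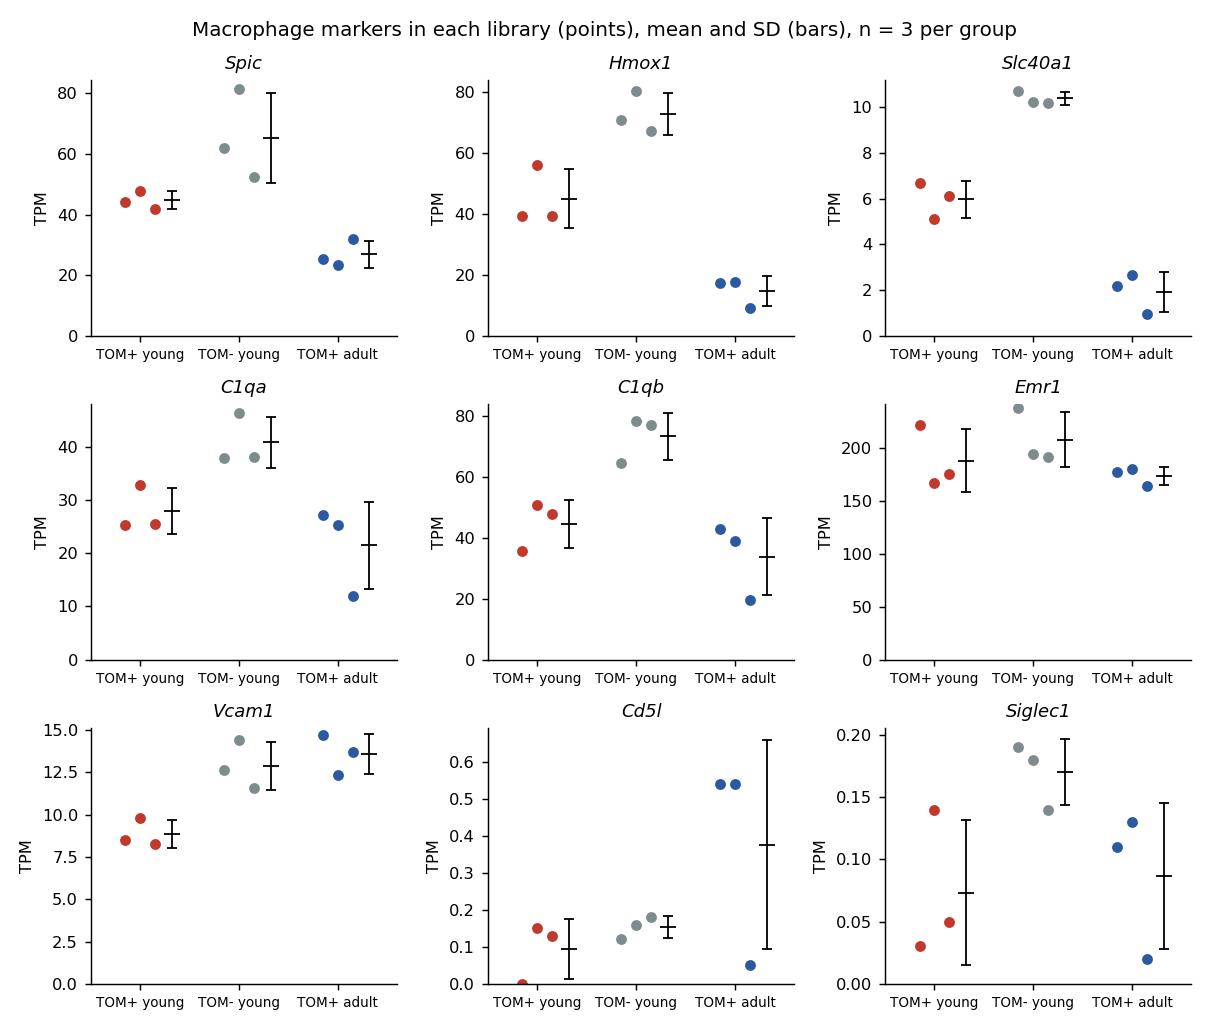
TPM (vertical axes, linear and starting at 0) of 9 macrophage markers in each library, with points for young TOM+ cDC2 (red), young TOM- DC2 (grey) and adult TOM+ cDC2 (blue) and the mean ± SD beside each group (lower ends under 0 are not drawn). Spic, Hmox1, Slc40a1, C1qa and C1qb are highest in TOM- DC2, Cd5l stays at or under 0.54 and Siglec1 at or under 0.19, and Emr1 lies between 163.56 and 237.22 in all groups.

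The 8 endothelial and stromal markers, which bear on Stab1, overlapped between TOM- DC2 (48.94 to 62.05 TPM) and young TOM+ cDC2 (46.11 to 64.08), but Pecam1 alone made up 85.6% to 99.0% of that sum. The other 7 markers summed to 1.46 to 6.18 TPM in TOM- DC2, 0.62 to 9.23 in young TOM+ cDC2 and 0.57 to 0.91 in adults, and Lyve1 and Madcam1 were listed at 0 in at least 6 libraries. The part of endothelial RNA in the level of Stab1 was not tested. Within young TOM+ cDC2, Stab1 was highest in the library numbered 81 (1.06 TPM), which also had the highest sum of these markers, with and without Pecam1. The difference of Stab1 between the young groups was larger without both libraries numbered 81, as given above. The 12 cDC2 markers summed to 58830 to 66050 TPM in the young libraries and 92820 to 96130 in adults, most of it from Cd74 and H2-Ab1, and none of the 12 was called between the young groups by edgeR or DESeq2, with 3 at an unadjusted edgeR p under 0.05.

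Genes that act around these receptors were examined from a list of 67, of which 64 were tested. Adgrb1 (listed as Bai1), Tub and Twist2 did not reach the filter. Between the young groups 1 of the 64 was called higher in TOM- DC2 (1.16% of all genes) and none higher in TOM+ cDC2 (0.0208%), where 4 had an unadjusted edgeR p under 0.05 and DESeq2 and limma called none. The 1 gene was Ctsl, which encodes the lysosomal protease cathepsin L, at 28.36, 39.97 and 44.41 TPM in TOM- DC2 and 15.75, 19.84 and 19.68 in young TOM+ cDC2. Its log2FC of -1.02 (SE 0.23, edgeR padj = 0.046) was at both thresholds, and the call was lost in 11 of 20 alternatives, among them without TOM+ cDC2 replicate 1, 2 or 3, TOM- DC2 replicate 2 or 3, or adult replicate 3, where padj was 0.07 to 0.23. The median log2FC of the list was -0.03.

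Between young and adult TOM+ cDC2, 8 of the 64 genes were called, 3 higher in the young and 5 higher in adults, shares close to the 5.96% and 6.86% of all genes. Its median log2FC was 0.08, or 0.05 with genes at the floor set to their bounds. Higher in the young were Lgals3, encoding galectin-3, which can bridge dead cells to MERTK (410.8 TPM against 171.7, log2FC 1.14, edgeR padj = 8e-06), and Rxra, the partner of the nuclear receptors that raise efferocytosis genes (6.72 against 2.67 TPM, log2FC 1.21, edgeR padj = 6e-06). The engulfment gene Dock1 was the remaining one (log2FC 1.19, edgeR padj = 3.2e-04) and was just under the fold threshold without TOM+ cDC2 replicate 1 (log2FC 0.998). Higher in adults was Itgb3, the β3 chain that pairs with αv to bind MFG-E8, at 8.55, 15.64 and 7.46 TPM against 3, 2.7 and 3.76 in young TOM+ cDC2 (log2FC -1.88, SE 0.26, edgeR padj = 1.4e-04). The bridging molecule Mfge8 and this receptor chain therefore moved in opposite directions with age. Cxcl16, whose membrane form is a scavenger receptor for PS (log2FC -1.08), the lysophospholipid receptor gene Gpr132 (log2FC -1.04) and the cholesterol exporter gene Abcg1 (log2FC -1.06) were near the fold threshold. Their calls were lost without adult replicate 3 (Cxcl16, -0.84, and Gpr132, -0.96), TOM+ cDC2 replicate 1 (Gpr132, -0.94) or TOM+ cDC2 replicate 2 (Abcg1, -0.95). Olr1, encoding the scavenger receptor LOX-1, had a log2FC of -1.06 with an edgeR padj that rounds to 0.05, and its call was lost in 13 of 20 alternatives, among them without TOM+ cDC2 replicate 1 or 2, TOM- DC2 replicate 2 or 3, or adult replicate 2 or 3 (padj up to 0.18).

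Against adults, TOM- DC2 had 7 of the 64 genes called, of which 5 had the higher level in TOM- DC2 and 2 in adults, next to 6.50% and 4.78% of all genes, with a median log2FC of 0.13, or 0.07 with genes at the floor set to their bounds. Pparg, the lipid-sensing nuclear receptor induced in phagocytes that take up dead cells, was at 5.04, 5.38 and 4.68 TPM in TOM- DC2 and 0.86, 2.05 and 1.96 in adults (log2FC 1.46, SE 0.27, edgeR padj = 0.0011). Rxra rose with it (log2FC 1.23, edgeR padj = 7e-06). Stab2, the paralog of Stab1 that sinusoidal endothelium makes, was at 2.15, 0.49 and 0.9 TPM in TOM- DC2, 1.37, 0.15 and 0.04 in young TOM+ cDC2 and 0.17, 0.02 and 0 in adults, highest in both libraries numbered 81. Its log2FC of 4.12 had an SE of 1.21 (edgeR padj = 0.018), and the call was lost without adult replicate 2 or 3 (edgeR padj = 0.070 and 0.073). Without adult replicate 1 the log2FC of Stab2 was 6.99 (edgeR padj = 0.018). P2ry2, a receptor for nucleotides released by dying cells (log2FC 1.03), lost its call without TOM- DC2 replicate 1 or adult replicate 3 (edgeR padj = 0.055 and 0.073). Dock1 (log2FC 1.02) was under the fold threshold without TOM- DC2 replicate 1 (0.84) or TOM+ cDC2 replicate 3 (0.997). Itgb3 (log2FC -2.56, edgeR padj = 2.5e-05) and Cxcl16 (log2FC -1.07, edgeR padj = 2.7e-04) were higher in adults, and the latter was under the fold without TOM- DC2 replicate 1 (-0.95) or adult replicate 3 (-0.84).

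**Figure D5:**
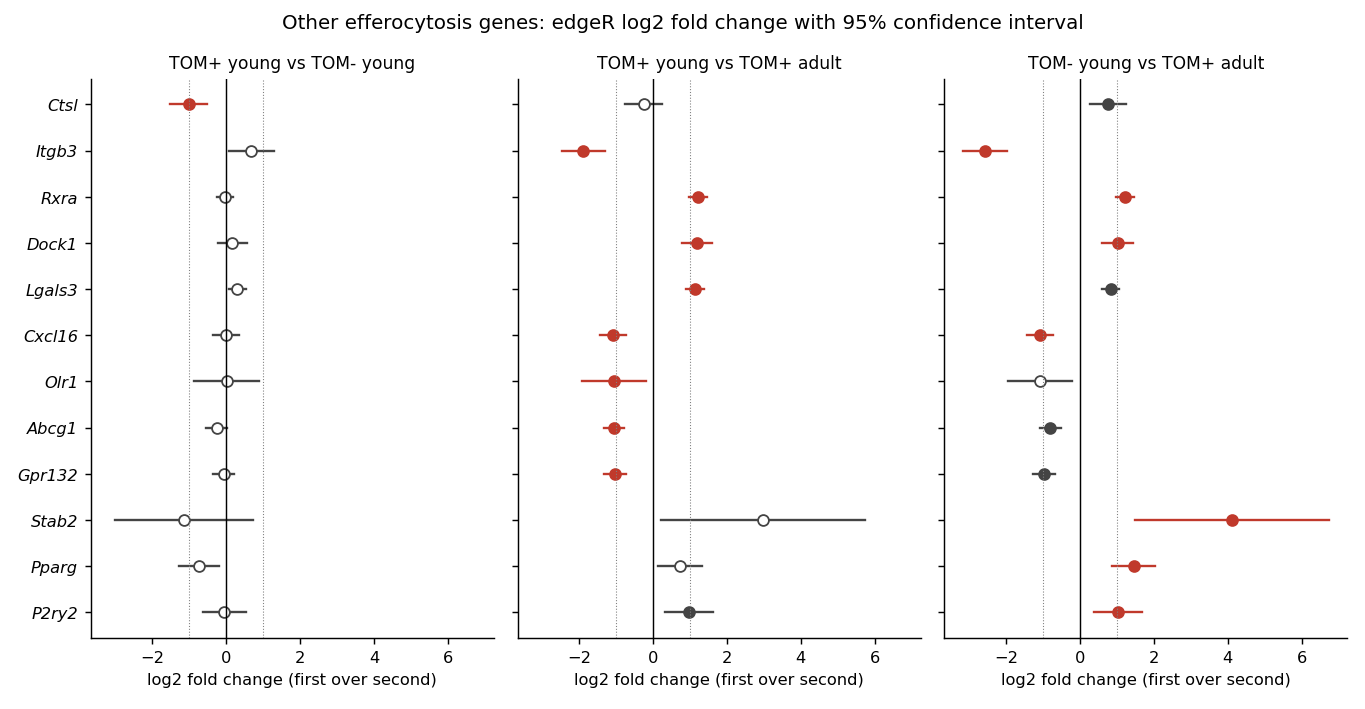
edgeR log2FC (horizontal axes, first group over second) with 95% confidence intervals for the 12 other efferocytosis genes named above in the 3 comparisons, where filled points passed the adjusted p, red points were also beyond the fold threshold (dotted lines at -1 and 1) and open points did not pass. Itgb3 lies at -1.88 and -2.56 against adults, on the other side of 0 from Lgals3, Rxra and Dock1, and Stab2 has the widest intervals.

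The genes most alike to each member were listed by Pearson's r of log2(TPM + 1) over the 9 libraries, among 11284 genes with a mean of at least 1 TPM, as a description without a test. The libraries share 3 groups, so any gene with the same order of groups scores high. Stab1 was most like Gng11 (r = 0.992), Pgam2 (0.991) and Nckap1 (0.989), and Axl was most like the biliverdin reductase gene Blvrb (0.974), C1qc (0.96) and Zfp408 (0.947). Mertk came closest to Smim13 (0.955), Pxmp2 (0.95) and Hbegf (0.938). For the members highest in young TOM+ cDC2, the leading genes were Mgat2 (0.952), Gramd4 (0.951) and Lemd2 (0.942) for Timd4, and Trmt61a (0.95), Fam217b (0.949) and Shpk (0.948) for Pros1. Cd163 was most like Mboat1 (0.979), Lrrfip2 (0.972) and Tyms-ps (0.971). For the members shared by both young groups they were 2700081O15Rik (0.997), Rpusd4 (0.991) and Btbd1 (0.99) for Mfge8, and Cep152 (0.987), Gnpda1 (0.979) and Vwa9 (0.979) for Cd36. Gas6 stayed under 1 TPM in the mean of every group and was left out. Among the members themselves, Mertk, Axl and Stab1 went together (r = 0.864 to 0.885), Timd4, Pros1 and Cd163 had r = 0.786 to 0.838, Mfge8 had r = 0.852 with Timd4, 0.862 with Cd163 and 0.709 with Pros1, and Pros1 with Stab1 had the lowest value of all pairs (-0.11).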

How the data were processed

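Spleen cells sorted by TOMATO were profiled by mRNA sequencing in 9 libraries, 3 per group. RNA was isolated with the PicoPure kit, copied with SMART-seq v4, which keeps no strand, and sequenced as single-end reads. The authors aligned reads to mm10 with STAR and deposited its read counts per gene, of which the unstranded column was used. They also deposited RSEM estimated counts (expected counts), TPM and FPKM per gene: the deposited TPM gave levels, the deposited expected counts, rounded, an alternative, and the deposited FPKM were not used. STAR counted reads with a single position, so reads on bases shared by 2 genes are left out or uncertain. No columns of the authors' comparisons were used. Reads on no gene were 26.144% to 31.634% of all reads and stayed out of library sizes.

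A gene was tested where its count averaged 1 or more. The quasi-likelihood test of edgeR 4.0.16 (R 4.3.3) was fitted over all 9 libraries after TMM scaling, with Benjamini-Hochberg adjustment. DESeq2 1.42.0, limma 3.58.1 on log2(TPM + 1) and the other settings of the closing section were alternatives. The fits were tested on simulated data. The members and all lists were chosen with earlier results of these data known. The text names all members, and of the 67 other efferocytosis genes the 8 or fewer per comparison with the largest absolute log2FC among those called with a mean of at least 1 TPM in a group. It also names marker lists by summed TPM with their defining genes, and Col3a1, Lyve1, Madcam1, Siglec1, Hmox1, C1qb, Clec10a and abundant genes of marker lists (Nr4a1, Batf3, Bst2, Pecam1, Cd74, H2-Ab1) were singled out after their values were seen. Some marker genes are not reported here. Genes alike to a member were ranked by Pearson's r. Symbols absent from the files were matched through RefSeq synonyms (Adgre1, Adgrb1 and Rubcn), and coordinates and promoters are from RefSeq GRCm38.p6, the same assembly as mm10, with exon overlaps from GENCODE vM21.

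Groups came from the labels, which give no replicate numbers. Deviations from the group means correlated between the young libraries of the same deposited number (r = 0.5, 0.179 and 0.33 for 81, 91 and 92 over 14452 genes). Between young libraries of different numbers r was -0.409 to 0.185. The highest of these was TOM+ cDC2 92 with TOM- DC2 91, above the value of the pair numbered 91. The numbers were taken to pair the young groups, with 91 and 92 told apart less clearly than 81. Between young and adult libraries with the same number r was -0.00178 to 0.0412, and the number pairs nothing there. No libraries of a group were copies: the lowest chi-square per gene between them was 8.743. Floors and counts cover counting error only.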

Additional observations from a re-analysis of the deposited data

How the results depend on the processing

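Over the alternatives, 499 of 537 recomputed log2FC of members kept their direction and their side of the call, 19 lost and 14 gained the call, and 5 changed sign, all of the 5 among differences that did not pass and with 1 library left out. These were Gas6 (-1.45 to 0.52, positive without TOM- DC2 replicate 1) and Cd36 (-0.11 to 0.16, positive without TOM+ cDC2 replicate 2 and, at 0.05, TOM- DC2 replicate 1) between the young groups, Axl between young and adult TOM+ cDC2 (-0.091 to 0.25, negative without adult replicate 3) and Pros1 between TOM- DC2 and adults (-0.050 to 0.36, negative without TOM- DC2 replicate 2). Members called between the young groups numbered 2 with only the 2 groups compared, 2 by the adjusted p with no minimum fold and 3 with the replicate block, and 1 to 3 with 1 library left out, the highest without TOM+ cDC2 replicate 1. With the replicate block all genes called rose from 170 to 274. Where the number pairs nothing, between young and adult libraries, the block added Mfge8 in TOM+ cDC2 (1.09), added Timd4 (1.34) and lost Gas6 (2.84) in TOM- DC2, and changed no other call of a member. Other efferocytosis genes called between the young groups went from 1 to 0 with RSEM expected counts and with limma at a pseudocount of 1 or 0.1 or without the filter, to 0 or 1 with 1 library left out, and to 2 with no minimum fold.

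On log2(TPM + 1) limma called 2 members in each comparison with adults, with or without the filter, since a pseudocount of 1 shrinks low genes by its construction. The other efferocytosis genes called were then 3 and 4 (5 in TOM+ cDC2 at a pseudocount of 0.1), and all genes 1147 and 1014, or 1123 and 994 without the filter. With no minimum fold, 27 and 32 of these genes and 5861 and 5247 of all genes passed, and 7 members in TOM- DC2. With 1 library left out, 3 to 5 and 3 to 4 members were called against adults, 7 to 10 and 5 to 10 of the other efferocytosis genes, and 1638 to 1887 and 1486 to 1679 of all genes, and 126 to 176 of all genes between the young groups. Leaving out both libraries numbered 81, marker sums without their most abundant gene and the bounds of Gas6 without single libraries were chosen after seeing the data. Gas6 did not pass filterByExpr and has no value there. Depth limits Gas6, Mertk and, in adults, Stab1, which rest on few reads.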

Other observations

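Further markers were summed per library, as values with no explanation. Erythroid markers were at 503.4 TPM in TOM- DC2 replicate 1 and at 1.11 to 40.73 in the other 8 libraries, and neutrophil markers at 13.98 in the same library and 0.05 to 0.94 in the others. B cell markers summed to 144.7 to 147.5 TPM in adults, 47.71 to 89.32 in young TOM+ cDC2 and 55.49 to 112.3 in TOM- DC2. Monocyte markers were at 3209 to 4200 TPM in adults and 2057 to 2640 in the young libraries, of which Nr4a1 made up 85.3% to 95.2%. The other 7 had the opposite order, at 203.0 to 230.0 TPM in adults, 281.0 to 316.0 in young TOM+ cDC2 and 222.0 to 274.0 in TOM- DC2, where TOM- DC2 overlapped adults. The sum of cDC1 markers was 241.8 to 254.4 TPM in adults and 202.5 to 234 in the young libraries, and without Batf3 it was 59.6 to 62.5 in adults, 47.8 to 54.0 in young TOM+ cDC2 and 66.2 to 72.0 in TOM- DC2. Markers of pDC were at 103.6 to 115.8 TPM in the young libraries and 121.7 to 164.2 in adults, and the groups overlapped without Bst2 (20.3 to 26.9 and 20.7 to 23.9). Those of T and NK cells were at 0.4 to 5.07 TPM and those of platelets and megakaryocytes at 1.1 to 6.01 in all libraries, with Pf4 at 0 to 1.38. Clec4a4, the DCIR2 gene of adult splenic cDC2, was at 243.88 to 279.98 TPM in adults and 96.06 to 136.34 in the young libraries, and Cd209a at 341.23 to 640.85 and 145.7 to 233.92. Other cDC2 markers had the opposite order: Clec10a was at 9.22 to 13.95 TPM in adults and 32.99 to 64.06 in the young libraries, and Itgam and Sirpa were lower in adults as well. Of the 12, edgeR called 3 higher in adults (6.86% of all genes) and 1 higher in young TOM+ cDC2 (5.96%). By the adjusted p of edgeR alone 8 passed higher in adults, where the share of all genes is not given here. With young TOM+ cDC2 higher 3 passed, against 21.0% of all genes.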
